A study of Mus musculus with 2 samples.

Results

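Among Tregs (regulatory T cells) without PPARg reporter signal, a small number of cells carried transcripts of an interferon response. These cells were chosen by their counts: a cell of the PPARg-negative library was taken when it had at most 10% mitochondrial UMIs and 3 or more UMIs (unique molecular identifiers, which count captured transcripts) summed over Ifit1, Ifit3, Isg15, Rsad2 and Usp18. The gate held 82 of 2633 kept cells, or 3.11% (exact binomial 95% interval 2.48 to 3.85%). The series has 2 libraries, and each comes from Tregs of male B6 mice of 8 weeks that carry the Pparg-Tdt and Foxp3-Gfp reporters, sorted from the spleens of 2 or 3 pooled mice and counted with droplet-based 3′ sequencing. PPARg is a nuclear receptor of lipid metabolism. Cells without its reporter signal made up the PPARg-negative library and cells with a low signal the PPARg-low library. Both libraries carry the same reporters and no treatment is given for either. Each group is 1 library, so the groups were not tested against each other. All intervals are at 95% and reflect counting error alone, without the spread between mice.

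Type I interferons signal through a receptor of the chains IFNAR1 and IFNAR2 to the kinases JAK1 and TYK2. These activate STAT proteins, which join IRF9 in a complex that binds interferon-stimulated response elements (ISREs) in promoters. The genes so induced encode sensors of viral nucleic acid, antiviral effectors and parts of antigen presentation. IRF7 and ISG15 belong to them, and USP18 is both an induced gene and a brake on the receptor. T cells that show this response in the absence of infection are often described as interferon-responsive cells.

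Of 2902 PPARg-negative barcodes, with 6114403 UMIs in all, 269 exceeded the mitochondrial limit, as did 373 of 1992 PPARg-low barcodes, with 3227201 UMIs. Kept cells had medians of 2171 and 1517 UMIs. The libraries shared 5 barcode sequences, and 0 of them lay in either gate. Doublets were not called.

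The rule genes set the membership, so their values describe the gate and test nothing. Ifit1 (ENSMUSG00000034459, mm10 chromosome 19, 34640871 to 34650009, plus strand), which encodes a protein that binds foreign RNA, had 169 UMIs in 59 of the 82 cells and up to 24 in a single cell. Isg15 (ENSMUSG00000035692, chromosome 4, 156199424 to 156200818, minus strand), the gene of a ubiquitin-like modifier, had 180 UMIs in 64 cells. Ifit3 (ENSMUSG00000074896, chromosome 19, 34583531 to 34588731, plus strand), a partner of Ifit1, had 79 UMIs in 31 cells. Usp18 (ENSMUSG00000030107, chromosome 6, 121245906 to 121270917, plus strand), which removes ISG15 from proteins, had 69 UMIs in 42 cells. Rsad2 (ENSMUSG00000020641, chromosome 12, 26442746 to 26456452, minus strand), the gene of the antiviral enzyme viperin, was the scarcest, with 18 UMIs in 11 cells.

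Most gate cells carried more than 1 of the 5 genes. The number of rule genes detected was 1 in 10 cells, 2 in 34, 3 in 26, 4 in 9 and 5 in 3 cells. Of the 10 cells with a single gene, 6 had Isg15, 2 had Usp18, 1 had Ifit1 and 1 had Ifit3. The sum of rule gene UMIs had a median of 4 and reached 38, 35 and 20 in the 3 highest cells. It was 3 in 31 cells, 4 in 16, 5 to 9 in 23 and 10 or more in 12. Outside the gate, 90 kept cells had 2 rule gene UMIs, 453 had 1 and 2008 had 0. The 31 cells just inside the gate had a median of 2712 UMIs and the 90 just outside it 2820, so cells on both sides of the boundary had like depth.

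Promoters are shown for 4 of the rule genes and for 2 interferon genes outside the rule, because the members that were higher in gate cells often share 1 short motif. Each sequence below covers the 160 bases upstream of a RefSeq transcript start (build GRCm38.p6), 5′ to 3′ on the gene's strand, with every match to the ISRE core in capitals. The core searched was GAAA, then 2 bases of any kind, then GAAA, on either strand. Regions are chr19:34640729-34640888 for Ifit1, chr19:34583369-34583528 for Ifit3, chr4:156200819-156200978 for Isg15, chr12:26456453-26456612 for Rsad2, chr5:120777660-120777819 for Oas3 and chr11:58199396-58199555 for Igtp.
Ifit1: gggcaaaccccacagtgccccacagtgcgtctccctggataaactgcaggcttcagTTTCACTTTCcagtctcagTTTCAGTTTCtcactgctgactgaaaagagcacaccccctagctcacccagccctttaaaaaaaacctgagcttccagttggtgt
Ifit3: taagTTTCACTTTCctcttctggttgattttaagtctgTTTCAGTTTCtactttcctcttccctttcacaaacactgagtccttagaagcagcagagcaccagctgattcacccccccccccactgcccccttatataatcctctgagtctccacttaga
Isg15: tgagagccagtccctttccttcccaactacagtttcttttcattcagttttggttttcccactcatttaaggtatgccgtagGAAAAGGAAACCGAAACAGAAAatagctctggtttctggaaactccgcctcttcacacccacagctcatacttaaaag
Rsad2: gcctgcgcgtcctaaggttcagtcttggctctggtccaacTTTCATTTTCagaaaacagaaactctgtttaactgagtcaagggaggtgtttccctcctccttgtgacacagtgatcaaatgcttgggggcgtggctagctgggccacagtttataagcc
Oas3: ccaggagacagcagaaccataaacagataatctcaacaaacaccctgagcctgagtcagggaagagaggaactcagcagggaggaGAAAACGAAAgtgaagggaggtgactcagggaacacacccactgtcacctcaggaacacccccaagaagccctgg
Igtp: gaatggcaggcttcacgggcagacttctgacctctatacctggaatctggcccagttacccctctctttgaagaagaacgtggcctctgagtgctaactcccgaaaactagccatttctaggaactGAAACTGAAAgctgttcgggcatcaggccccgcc

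The matches began 104 and 85 bases before the start in Ifit1, 156 and 122 before it in Ifit3, and 120 before it in Rsad2, all on the reverse strand. Isg15 had 3 overlapping matches, at 78, 72 and 66 bases before the start. Oas3 had 1 match at 75 and Igtp 1 at 34 bases. Over the 300 bases from 250 before to 50 after each start, the core on either strand was found in 1131 of 32851 RefSeq promoters (3.44%) and in 228 of the 5547 measured genes that the RefSeq promoters cover (4.11%). It was found in 4 of 4 rule genes with a promoter (Usp18 was not among them). A match is a string of letters and does not show that a factor binds there.

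To describe the rest of the transcriptome, gate cells were set against 802 cells of the same library outside the gate, up to 10 per gate cell and within 10% of its depth. A gene was measured with 20 or more UMIs over both sets. Gate UMIs count toward this limit, so some sparse genes were measured only because they were high in the gate. It was called higher or lower at a 1.5-fold ratio of CPM (UMIs per 1000000 UMIs outside the rule genes), with the interval on that side of 1. Depth was matched at medians of 2714 and 2706.5 UMIs outside the rule genes. Of the matched cells, 592 had 0 rule gene UMIs, 183 had 1 and 27 had 2. Mitochondrial UMIs made up medians of 2.21 and 2.35%, ribosomal protein UMIs 36.7 and 38.2% and the nuclear RNA Malat1 2.33 and 2.44%. Ribosome-poor cells, with under 20% ribosomal protein UMIs, made up 8.54% of the gate and 8.98% of the matched set, against 23.8% of all other kept cells. Of 7148 measured genes, 223 were higher in gate cells (3.12%) and 88 lower (1.23%), and the median log2 ratio was -0.01. The 223 include the 5 rule genes, whose rise the gate itself fixed.

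Each rule gene was also read in a gate built from the other 4, so that its own UMIs did not pick the cells. The rule genes were chosen together with earlier results of these data known, and each such gate lies within the full gate. The ratios below therefore describe how the rule genes occur together and are not an independent test. All 5 were higher. Ifit1 was found in 59.6% of the 57 cells gated without it and in 3.91% of their matched cells, a ratio of 39.9 (26.2 to 62.6). Ifit3 was 29.6-fold higher (17.7 to 51.7) and Isg15 15.1-fold higher (11.1 to 20.6). Usp18 was 4.05-fold higher (2.68 to 6.01), and Rsad2 had 16 against 2 UMIs, a ratio of 75.6 (17.8 to 678). Usp18 thus had the smallest ratio of the 5, and 8.90% of cells outside the gate carried it, close to the 9.21% for Isg15 and above the 3.25% for Ifit1.

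Genes of the interferon response outside the rule were higher as a group. Over 7 lists that hold transcription factors, sensors, antiviral effectors, ubiquitin-system genes, nuclear genes, GTPases and surface genes, 64 of 103 measured members were higher and 1 was lower, with a median log2 ratio of 0.99 beside -0.01 over all measured genes. Their UMIs added up to 5951 in gate and 35321 in matched cells, 1.59 times higher per UMI (1.55 to 1.64). This sum takes in all members, measured or not. The count of higher members and the median do not, since sparse members could be measured through their gate UMIs alone. Among the other measured genes, outside these lists, the rule, antigen presentation and feedback, 2.1% were higher and 1.24% lower. Restricted to the 47 gate cells with 3 to 4 rule gene UMIs, 21 of 87 members were higher, with a median log2 ratio of 0.55.

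**Figure D1:**
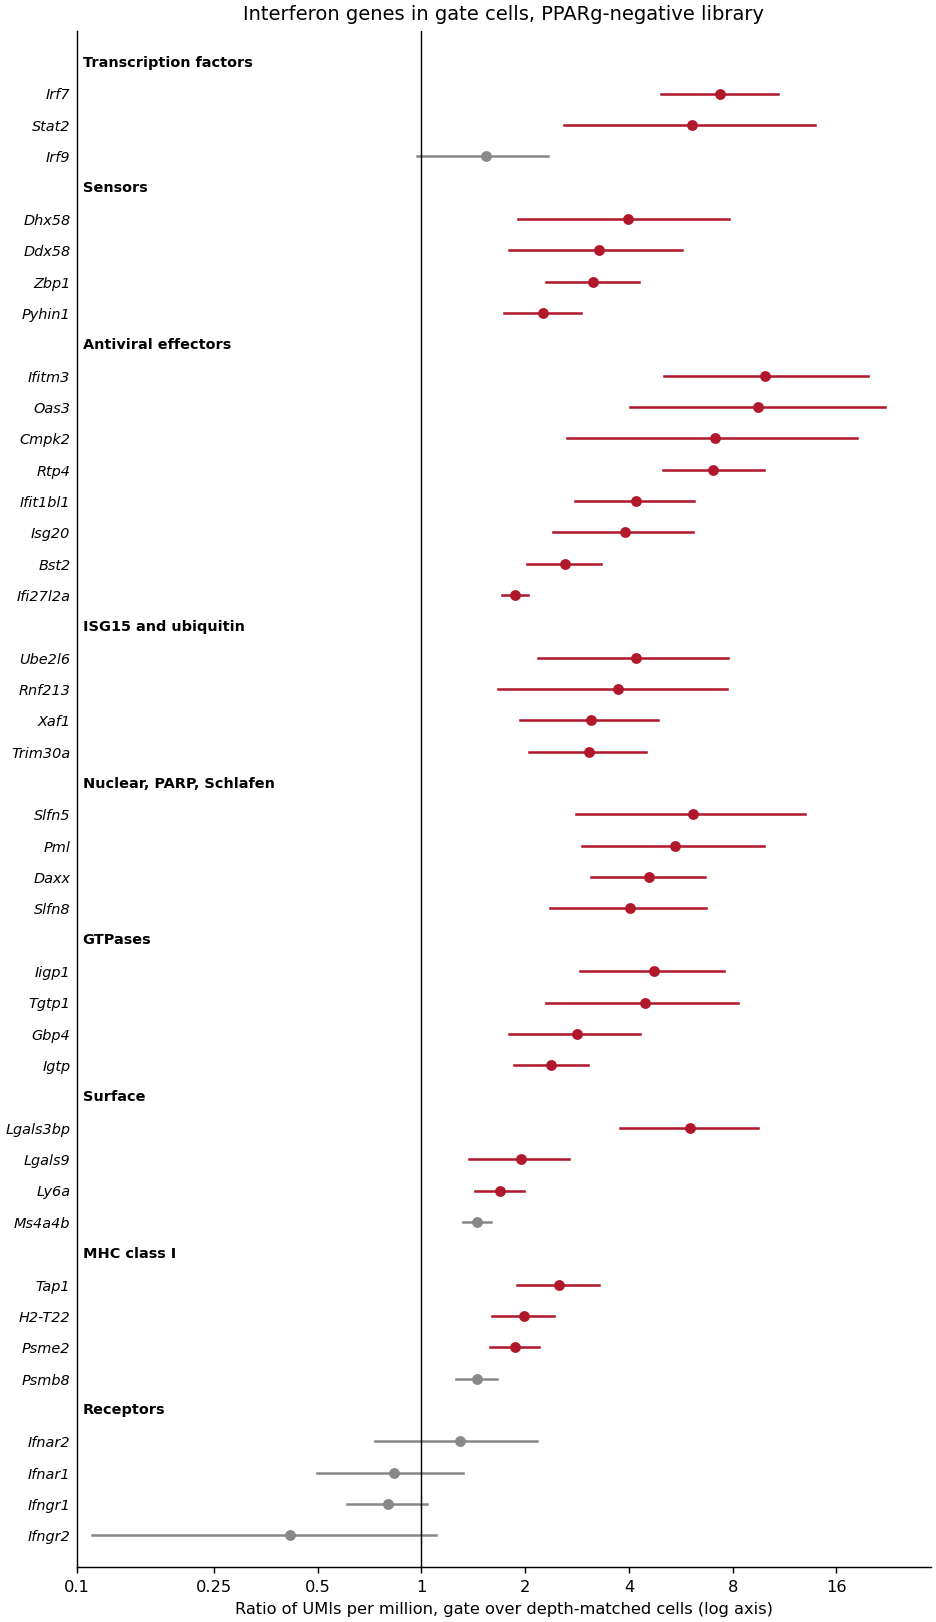
Ratio of CPM in gate cells over depth-matched cells of the PPARg-negative library, on a log axis, for interferon genes chosen by the naming rule and grouped by role. Points are ratios, lines are exact 95% intervals of counting error, red marks genes called higher and grey marks genes not called. Irf7, Rtp4, Ifitm3 and Oas3 lie at 7.03 or above, while the 4 receptor genes lie on both sides of 1.

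Of the transcription factors that carry the signal, Irf7 (chromosome 7, 141262706 to 141266481, minus strand), which amplifies the interferon response, was the most raised. It had 49 UMIs in gate and 63 in matched cells, was detected in 42.7 and 7.36% of cells, and was 7.35-fold higher (4.95 to 10.8). Stat2, a signal carrier from the receptor to the nucleus, was 6.11-fold higher (2.59 to 13.8). It had 11 and 17 UMIs and was measured only with its gate UMIs. Irf9, which joins the ISRE-binding complex, had a ratio of 1.54 with an interval of 0.973 to 2.33 and was not called. Of 9 measured members of the list 3 were higher and 0 lower. Irf1, a factor raised by interferon gamma in many cells, had 21 and 229 UMIs and a ratio of 0.867 (0.526 to 1.36).

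Sensors of foreign nucleic acid were higher in 6 of 10 measured members, with a median log2 ratio of 1.10. Zbp1, a sensor of Z-form nucleic acid, was found in 37.8% of gate and 18.2% of matched cells and was 3.15-fold higher (2.29 to 4.27). Ddx58, the gene of the RNA sensor RIG-I, was 3.27-fold (1.8 to 5.68) and its relative Dhx58 3.96-fold higher (1.90 to 7.80). The HIN-200 family genes Pyhin1, Mndal and Ifi203 were 2.26-fold, 2.03-fold and 1.71-fold higher. These 3 genes are close relatives whose counts may share reads. Tmem173, the gene of the DNA-signalling adaptor STING, was not called, at 0.707-fold (0.436 to 1.09).

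Antiviral effectors were higher in 13 of 19 measured members and lower in 1, with a median log2 ratio of 1.38, the largest of the 7 lists. Rtp4 (chromosome 16, 23520291 to 23614222, plus strand), an inhibitor of flavivirus replication, had 64 UMIs in gate and 86 in matched cells and was detected in 51.2 and 9.35% of them, a ratio of 7.03 (5.01 to 9.83). Ifitm3, which blocks virus entry at membranes, was 9.95-fold higher (5.04 to 19.7), at 20 and 19 UMIs. Oas3, an oligoadenylate synthetase, was 9.45-fold higher (4.04 to 22.1), at 13 and 13 UMIs. Cmpk2, a nucleotide kinase gene, was 7.09-fold higher (2.64 to 18.3), at 9 and 12 UMIs. Ifitm3, Oas3 and Cmpk2 had under 20 UMIs in matched cells and were measured only with their gate UMIs. Isg20, an exonuclease gene, was 3.89-fold and Bst2, which tethers budding virus, 2.60-fold higher (2.03 to 3.31). Ifit1bl1, at 4.19-fold, is a relative of Ifit1, and reads could be split between such copies.

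The most abundant interferon gene with a called difference, Ifi27l2a, was already present in most cells. It had 640 UMIs in gate and 3228 in matched cells, was detected in 95.1 and 86.5% of them, and was 1.87-fold higher (1.72 to 2.04). Its neighbour Ifi27 (mm10 chromosome 12, 103434211 to 103440239, against 103442167 to 103443680 for Ifi27l2a) had 14 and 350 UMIs and was 2.65-fold lower (1.56 to 4.89). Ifi27 was thus the 1 member of the 7 lists called lower. In the PPARg-low gate Ifi27 had 25 and 138 UMIs, a ratio of 1.59 (0.994 to 2.45) that was not called. Reads of the 2 neighbouring and related genes could be split between them.

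Genes of ISG15 conjugation and interferon-induced ubiquitin ligases were higher in 11 of 16 measured members, with a median log2 ratio of 1.03. Ube2l6, the enzyme that passes ISG15 to its targets, was 4.20-fold (2.18 to 7.76) and Rnf213 3.71-fold higher (1.67 to 7.69). Trim30a and Xaf1 were 3.07-fold and 3.11-fold higher, and were found in 39.0 and 29.3% of gate cells against 12.8 and 9.98% of matched cells. Uba7, the activating enzyme of ISG15, had 6 and 47 UMIs and was not called (1.21-fold, 0.421 to 2.83).

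The list with the largest share of higher members held nuclear body, PARP and Schlafen genes, with 19 of 25 higher, 0 lower and a median log2 ratio of 1.16. Daxx and Pml, components of PML nuclear bodies, were 4.57-fold (3.10 to 6.64) and 5.44-fold higher (2.92 to 9.85). Slfn5 was 6.14-fold and Slfn8 4.02-fold higher, and Slfn1 was found in 56.1% of gate and 24.7% of matched cells (3.07-fold, 2.35 to 3.98). Interferon-induced GTPases, which act against intracellular pathogens, were higher in 8 of 14 measured members. Iigp1 was 4.72-fold (2.89 to 7.57), Tgtp1 4.45-fold, Gbp4 2.83-fold and Igtp 2.38-fold higher (1.85 to 3.04), the last found in 58.5 and 28.6% of cells. Guanylate-binding and immunity-related GTPase genes have near copies, so single members of this list are uncertain.

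Surface genes raised by interferon were higher in 4 of 10 measured members. Lgals3bp, which encodes a secreted glycoprotein, was 6.0-fold (3.76 to 9.45), Lgals9 1.94-fold and Ly6a, the gene of Sca-1, 1.69-fold higher (1.43 to 1.98). Ms4a4b, at 493 and 3211 UMIs, had a ratio of 1.45 (1.32 to 1.60), under the 1.5-fold size. Ly6e, an abundant Ly6 gene, had a ratio of 1.0 (0.916 to 1.09).

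Transcripts of MHC class I and antigen processing genes were higher in part. Of 19 measured members 5 were higher and 0 lower, with a median log2 ratio of 0.53. Tap1, a peptide transporter gene, was 2.51-fold (1.90 to 3.27) and the nonclassical class I gene H2-T22 1.98-fold higher (1.61 to 2.42). Psme2, Psmb10 and H2-T23 were the others, at 1.87-fold, 1.63-fold and 1.68-fold. The classical chains and their light chain, which make up most UMIs of the list, had ratios near 1, with B2m at 1.09 (1.03 to 1.16), H2-K1 at 1.07 (0.984 to 1.16) and H2-D1 at 1.02 (0.953 to 1.10). Class I genes are a multigene family whose reads may be shared.

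The receptor side showed no called difference. Of 8 measured receptor and kinase genes 0 were higher and 0 lower, with Ifnar1 at 0.833-fold (0.499 to 1.32), Ifnar2 at 1.30-fold (0.731 to 2.16) and Jak1 at 1.0-fold (0.724 to 1.35). For the 21 interferon ligand genes, 1 UMI was counted in gate cells and 5 in matched cells, so 0 were measured. Among feedback genes 1 of 7 was higher, Socs1 at 1.51-fold (1.07 to 2.09). Usp18, a feedback gene too, had served in the rule. Socs1 fell below the 1.5-fold size when matched also on ribosomal share (1.47-fold) and against all other kept cells (1.47-fold).

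The ISRE core was found in 27 of the 53 higher members of the 7 lists with a RefSeq promoter (50.9%) and in 8 of 28 measured members that were not higher (28.6%), beside 4.11% of measured genes. Of the GTPases on the list, 9 of 10 with a promoter had it, as in the Igtp sequence above. Of all genes called higher, 44 of 187 with a promoter held it (23.5%), and of those called lower 1 of 58 (1.72%). The 44 include the 27 list members above and the 4 rule genes with a promoter, which chose the cells. The 23.5% therefore does not stand for higher genes outside the lists and the rule. The lists were assembled from known interferon-induced genes, so their motif content is a property of the lists as well. Another core, TTCNNNGAA, the palindrome known as the gamma-activated site, was found in 8.30% of all promoters, in 24.5% of the higher members and in 25% of those not higher.

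The level of these genes was graded with the number of rule gene UMIs. The 7 lists gave 17.1 UMIs per 1000 in cells with 0 rule gene UMIs (17.0 to 17.3), 17.1 in cells with 1 and 17.6 in cells with 2 (17.1 to 18.1). Within the gate the level was 21.1 with 3 to 4 UMIs (20.4 to 21.9), 27.2 with 5 to 9 (25.9 to 28.5) and 39.5 in the 12 cells with 10 or more (37.5 to 41.7). Cells just inside the gate, with 3 UMIs, stood at 20.3 per 1000, and those just outside at 17.6. Single cells overlapped widely. The 82 gate cells ran from 8.10 to 127 per 1000, and 18 of them exceeded 33.2 per 1000, the 90th percentile of the 2008 cells with 0 rule gene UMIs. Those 18 were 7 of the 12 cells with 10 or more rule gene UMIs, 6 of the 23 with 5 to 9 and 5 of the 47 with 3 to 4. Of the 2008 cells with 0, by the choice of this limit, 201 exceeded it. The highest gate cells, at 127, 99.3, 86.1 and 85.1 per 1000, were all ribosome-poor. Those at 127, 86.1 and 85.1 had only 722, 642 and 615 UMIs. The highest ribosome-rich gate cell stood at 50.4.

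**Figure D2:**
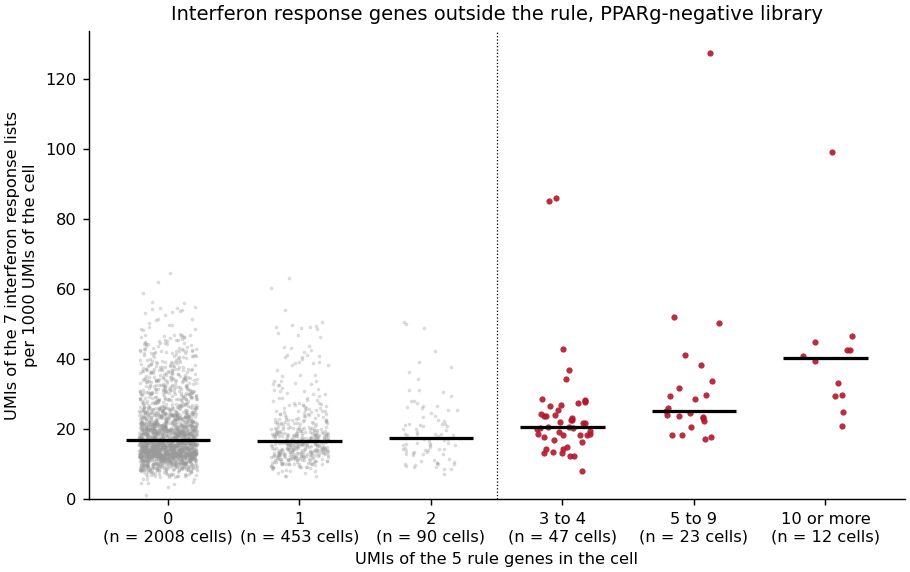
UMIs of the 7 interferon response lists per 1000 UMIs of each cell (vertical axis) by the number of rule gene UMIs in that cell (horizontal axis), PPARg-negative library. Each point is a cell, horizontal bars are medians, and red points right of the dotted line are gate cells. The median lies at 16.9 in the cells with 0 rule gene UMIs and at 40.3 in the 12 cells with 10 or more.

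The level also differed with the ribosomal share of a cell, and in ribosome-poor cells other transcripts make up more of the total. In ribosome-poor cells with 0 rule gene UMIs the lists gave 28.8 per 1000, against 15.3 in ribosome-rich ones. Within the ribosome-rich cells the steps remained, with 15.3 at 0 rule gene UMIs, 16.2 at 1 to 2, 20.5 at 3 to 4, 25.5 at 5 to 9 and 34.8 in the 10 cells with 10 or more. The gate held 7 ribosome-poor cells, too few to read steps from. At 750 UMIs per cell, 79 gate cells had 7 to 60 UMIs of the lists with a median of 18, and 2315 other cells had 1 to 48 with a median of 13. Of the gate cells, 79.7% exceeded the median of the others.

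Single genes differed in where they rose along this scale. Of the 64 higher members 38 increased from 3 to 4, to 5 to 9, to 10 or more rule gene UMIs, as did 16 of the 39 measured members that were not higher. The 64 were called on these same gate cells, so their counts along the scale are a description. Rtp4 stood at 35.9 CPM with 0 rule gene UMIs, then 180, 304 and 601 at the 3 steps of the gate, where it was detected in 38.3, 56.5 and 91.7% of cells. Bst2 stood at 144 with 0 rule gene UMIs and at 252, 336 and 932 at the steps, and was detected in all 12 cells of the last. Irf7 stood at 28.3, then 158, 304 and 241, so its last step lies inside the intervals of the step before. Ifi27l2a stood at 1413, then 2562, 3324 and 2285, and the intervals of its last 2 steps did not overlap (2888 to 3807 and 1801 to 2860).

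Cmpk2 and Dhx58 were highest in the cells with the most rule gene UMIs. Cmpk2 had 0 UMIs in the 47 cells with 3 to 4 rule gene UMIs, 2 in the 23 cells with 5 to 9 and 7 in the 12 cells with 10 or more, or 211 CPM (84.6 to 434). Dhx58 had 2, 2 and 9 UMIs, and its 271 CPM in the last 12 cells (124 to 514) compared with 11.9 in cells with 0 rule gene UMIs. Those 12 cells therefore carry the Dhx58 difference, and without them it was no longer called. Cmpk2 has under 20 UMIs over both sets without them and was then not measured. For the 7 lists the removal of these 12 cells left 48 of 98 members higher, with a median log2 ratio of 0.71.

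**Figure D3:**
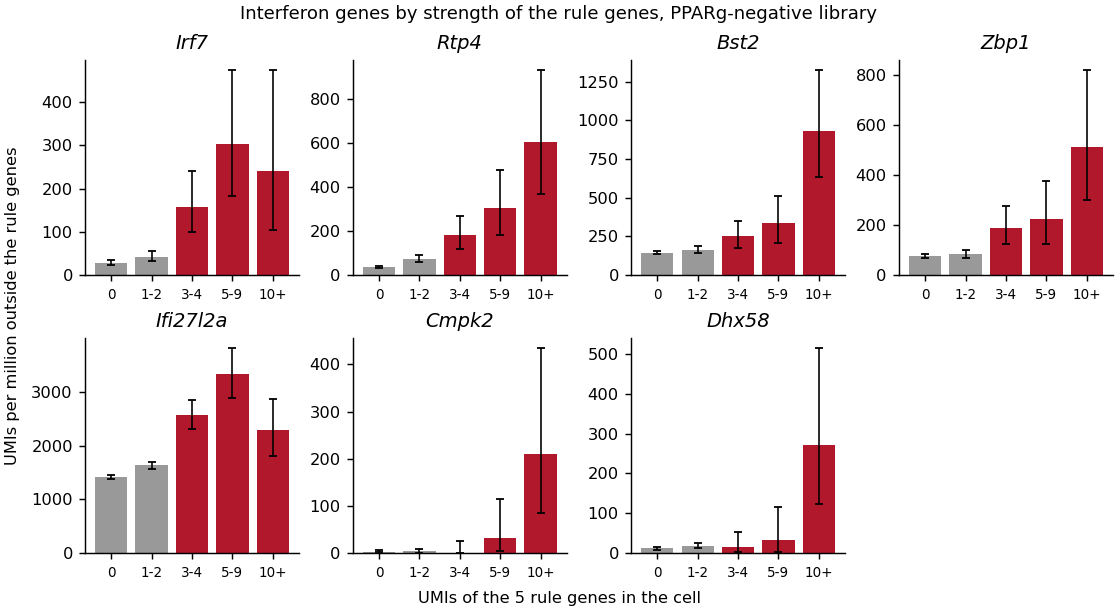
CPM outside the rule genes for 7 interferon genes (vertical axes differ), by rule gene UMIs in the cell, PPARg-negative library. Bars are pooled over the cells of a class, red for gate cells, and lines are exact 95% intervals of counting error. Rtp4 and Bst2 increase at every step of the gate, Ifi27l2a is lower in the last class than in the one before, and Cmpk2 and Dhx58 are high in the 12 cells of the last class.

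Gate cells carried the markers of Tregs. Foxp3, the defining transcription factor, is sparse in these data and was found in 4.88% of gate and 4.74% of matched cells. Il2ra, the interleukin 2 receptor chain, was found in 35.4 and 36.9%, Izumo1r, the gene of folate receptor 4, in 87.8 and 82.7% and Cd3e, a T cell receptor subunit, in 92.7 and 83.7%. Of 15 measured identity genes 0 were higher and 1 was lower, with a median log2 ratio of -0.08. The lower one was Ctla4, an inhibitory receptor, with 22 and 338 UMIs (0.615-fold, 0.380 to 0.947). It was not called after matching on ribosomal share as well (0.662-fold, 0.409 to 1.02). Ikzf2, the gene of the Treg factor Helios, had a ratio of 0.689 (0.558 to 0.842), just under the size needed for a call, and Tnfrsf18 one of 0.757 (0.594 to 0.953).

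Several genes of effector Tregs were lower in gate cells, while their level in the few cells with the most rule gene UMIs was uncertain. Of 16 measured members 6 were lower, 0 were higher and 4 had ratios over 1, with a median log2 ratio of -0.68, beside 1.23% of genes called lower overall. Their summed UMIs were 198 and 2816, a ratio of 0.664 (0.572 to 0.768). Tnfrsf9, the costimulatory receptor 4-1BB, had 14 and 299 UMIs and was 2.26-fold lower (1.33 to 4.18). Klrg1, a receptor of terminally differentiated cells, had 2 and 108 UMIs and was 5.71-fold lower (1.54 to 47.8), although the share of cells with it was 2.44 and 4.74%. Pdcd1, the gene of the inhibitory receptor PD-1, had 0 and 49 UMIs, a 1.73-fold lower level with the gate set at a floor of 3 counts, and its exact interval began at 1.35-fold lower. Icos, Maf and Cd83 were the other 3, at 0.547-fold, 0.483-fold and 0.305-fold.

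The list gave 1.66 UMIs per 1000 in cells with 0 rule gene UMIs (1.62 to 1.70). Outside the gate it was lower than this at 1.13 with 1 UMI (1.07 to 1.19) and 1.31 with 2 (1.18 to 1.46). Within the gate it was 0.806 with 3 to 4 (0.664 to 0.970) and 0.575 with 5 to 9 (0.403 to 0.796). The 12 cells with 10 or more stood at 1.5 (1.12 to 1.98), so their interval includes the level of cells with 0. Of their 50 effector UMIs, however, 23 lay in 1 cell. Their cell median was 0.850 per 1000, beside 0.929 in cells with 0. These classes of rule gene UMIs were matched on neither depth nor ribosomal share. Cells with 0 had medians of 2044.5 UMIs and 34.0% ribosomal protein UMIs, and cells with 1 had 2530 and 37.3%. The effector level was not split by ribosomal share, so its steps cannot be told apart from these differences. Effector UMIs were unevenly spread over cells, with 48.0% of those in the matched set held by 80 of its 802 cells. Cells with 10 or more effector UMIs made up 7.32% of the gate (2.73 to 15.2%) and 7.61% of matched cells (5.87 to 9.66%). Once cells with 2 or more UMIs of B cell, myeloid or erythroid markers and the deepest 2% of cells were left out, 2 of 13 measured members were lower, with a median of -0.49. Klrg1 (0.384-fold, 0.00937 to 2.34) and Pdcd1 (0.749-fold, 0 to 0.965) were then not called, while Tnfrsf9 still was (0.441-fold, 0.199 to 0.853). With the 35 cells of 5 or more rule gene UMIs as the gate, 0 of 12 were lower and 1 was higher, with a median of -0.42.

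Resting Treg genes showed no common shift. Of 14 measured members 2 were higher and 0 lower, with a median log2 ratio of 0.15. Txk, a kinase gene of naive T cells, was 1.63-fold higher (1.13 to 2.29), and Dapl1 was 2.29-fold higher (1.21 to 4.07) with 46.7% of its 15 gate UMIs in 1 cell. Lef1 and Satb1, transcription regulators of naive cells, had ratios of 1.44 (1.09 to 1.88) and 1.30 (0.956 to 1.75), and the lymph node homing receptor Ccr7 had 1.14 (0.797 to 1.59). With 5 or more rule gene UMIs as the gate, Dapl1 turned to 0.475-fold (0.0115 to 2.97).

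**Figure D4:**
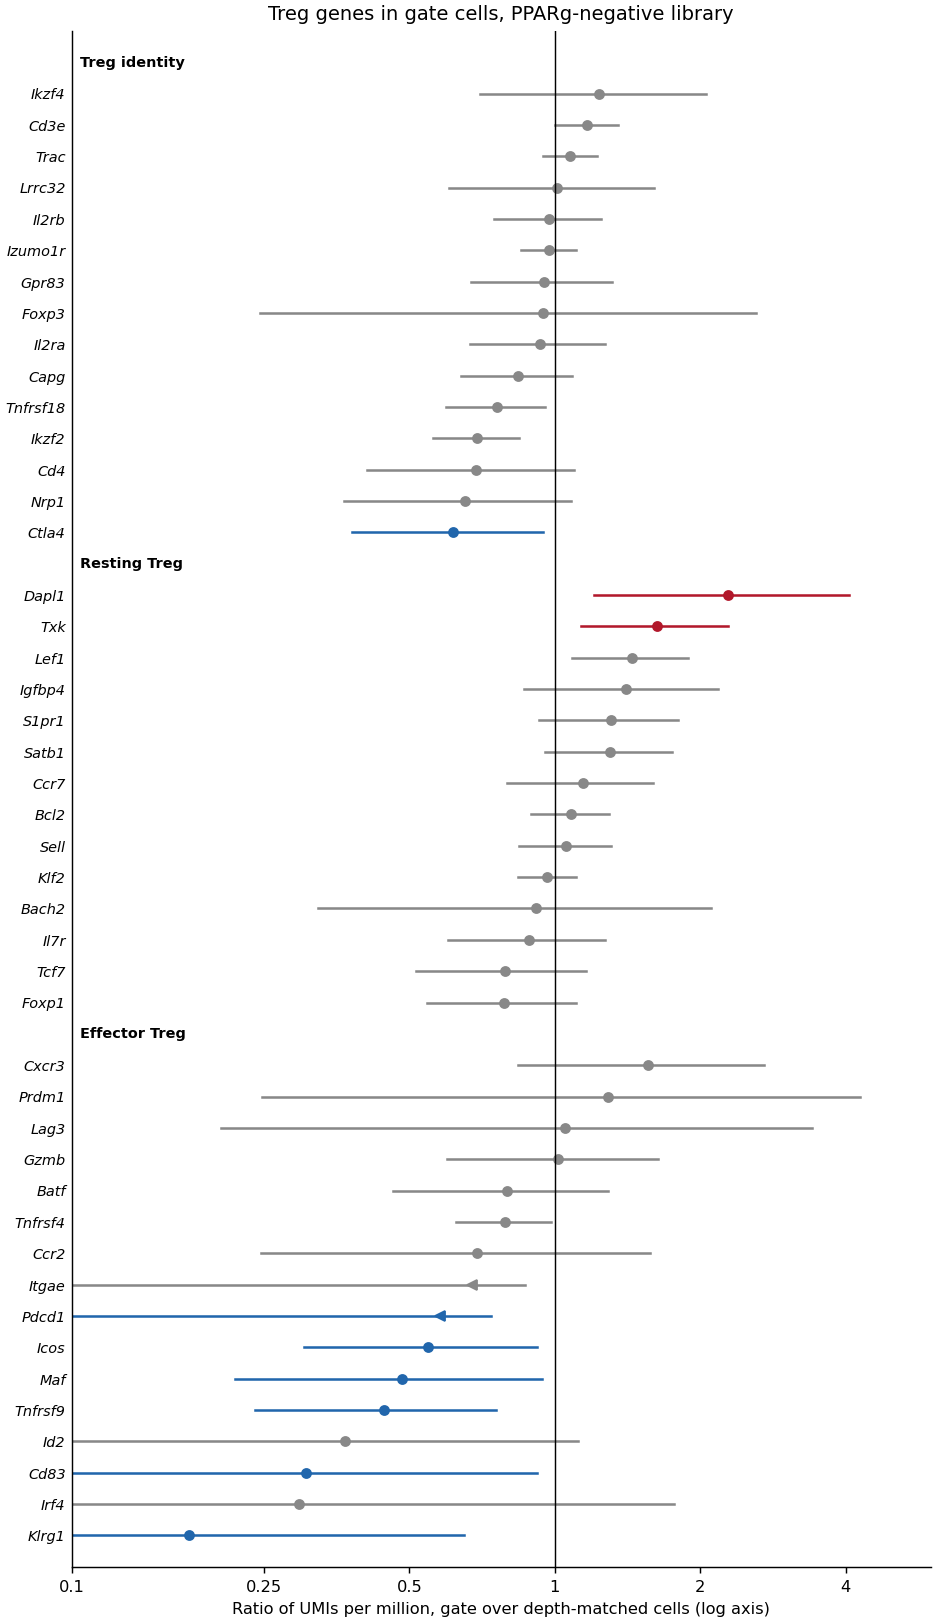
Ratio of CPM in gate cells over depth-matched cells of the PPARg-negative library, on a log axis, for all measured members of the Treg identity, resting Treg and effector Treg lists. Lines are exact 95% intervals of counting error cut at the axis limit, red and blue mark genes called higher and lower, and left-pointing triangles mark genes with 0 gate UMIs set against 3 counts. Effector genes lie mostly below 1 and identity genes around it.

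Genes induced through the T cell receptor had 2 of 10 measured members lower and 0 higher. The immediate early gene Nr4a1 had 0 and 54 UMIs, with an exact interval that began at 1.5-fold lower, and Dusp1, a phosphatase gene, had 3 and 90. Neither was called once marker-bearing and deepest cells were left out. Heat shock genes and cell cycle genes each had 0 of 10 members called, with medians of -0.04 and 0.01. Stmn1, Hmgb2 and Tubb5 had ratios of 1.44, 1.10 and 0.838 in gate cells.

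Many markers of other cell types were at 0 in gate cells, and others were found in shares near those of matched cells. In gate cells 5 of 7 B cell genes, 6 of 8 myeloid genes, 4 of 7 CD8 T and NK genes, 4 of 8 plasmacytoid dendritic cell genes and 5 of 5 erythroid genes had 0 UMIs. Summed per gate cell these lists ran from 0 to 4, 0 to 3, 0 to 4, 0 to 8 and 0 to 0 UMIs. The defining genes Cd79a, Ms4a1, Siglech, Lyz2 and Csf1r were among those at 0, and for 0 of 82 cells the exact upper limit on the share of cells with a UMI is 4.4% (3 counts would be 3.66%). Others were detected, with the B cell gene Cd79b in 4.88% of gate and 4.36% of matched cells. Cd8b1, of the CD8 T and NK list, was found in 6.10 and 7.36% and Cst3, of the myeloid list, in 29.3 and 30.8%. Summed UMIs of the CD8 T and NK list had a ratio of 1.73 (0.926 to 3.02). Of the plasmacytoid list Bst2, itself an interferon gene, and Ccr9 were higher, the latter 3.34-fold on 12 gate UMIs (1.57 to 6.60). Ccr9 was not called once marker-bearing and deepest cells were left out (2.59-fold, 0.952 to 6.09). Cd74, the MHC class II chaperone, was 2.01-fold lower (1.18 to 3.73), at 14 and 266 UMIs. A single matched cell with 118 UMIs of the B cell list held 83 of those 266. Cd74 was not called once marker-bearing cells, a filter that counts Cd74 itself, and the deepest cells were left out (0.974-fold, 0.253 to 2.69). The level of free RNA could not be read from another cell type, since none formed a group here. Lyz2, a myeloid gene, was found in 2 of the 802 matched cells.

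Outside the lists 144 genes were higher. Of 7013 measured genes outside the interferon, antigen presentation, rule and feedback lists 2.1% were higher, below the 3.12% over all measured genes. The 144 are therefore a description and not a result about gate cells. The 12 ranked highest by the interval bound nearest to 1 were Ccrl2, Ddx60, Phf11c, Nkg7, Pydc3, Ppa1, Pydc4, Gne, Ly6k, Nampt, Tfpi and Ascc3. Ddx60, a helicase that aids RNA sensing, was 6.11-fold higher (2.59 to 13.8) at 11 and 17 UMIs, found in 12.2 and 1.87% of cells. Ccrl2, an atypical chemokine receptor gene, was 6.82-fold higher (3.07 to 14.7) at 13 and 18 UMIs. Ddx60 and Ccrl2 were measured only with their gate UMIs. Phf11c, Pydc3 and Pydc4 are relatives of list members and were 4.07-fold, 3.54-fold and 3.26-fold higher. Nkg7, a cytotoxic granule gene, was 4.45-fold higher, but 43.8% of its 16 gate UMIs lay in 1 cell, and it was not called once marker-bearing and deepest cells were left out (2.12-fold, 0.791 to 4.87). The genes ranked lowest included Dexi and Nol11, both with 0 gate UMIs, Vim, an intermediate filament gene (1.90-fold lower, 1.41 to 2.63), Pglyrp1 (2.17-fold lower, 1.35 to 3.70) and S100a6 (1.8-fold lower, 1.28 to 2.60). Without marker-bearing and deepest cells Dexi, Pglyrp1 (0.605-fold, 0.326 to 1.036) and S100a6 (0.781-fold, 0.455 to 1.26) were not called. With 5 or more rule gene UMIs as the gate, S100a6 stood at 1.22-fold (0.733 to 1.92), and Dexi and Nol11 were not called.

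The same gate in the PPARg-low library held 26 of 1619 kept cells, or 1.61% (1.05 to 2.34%), against 3.11% (2.48 to 3.85%). The PPARg-low cells were shallower. With every cell thinned to 750 UMIs, which left out 239 and 238 cells, 3 or more rule gene UMIs were found in 16 of 2394 PPARg-negative cells (0.668%, 0.382 to 1.08%) and 4 of 1381 PPARg-low cells (0.290%, 0.0790 to 0.740%). At least 1 rule gene UMI was found in 10.2% (9.05 to 11.5%) and 7.82% (6.46 to 9.36%). Intervals of the thinned shares overlapped, the counts of 16 and 4 cells give little precision, and the difference was not tested. The strongest cells differed in level, with 12 PPARg-negative and 0 PPARg-low cells at 10 or more rule gene UMIs and highest sums of 38 and 8. Library and group cannot be told apart.

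In the PPARg-low gate, set against its own 251 matched cells, 144 of 4428 measured genes were higher (3.25%) and 56 lower (1.26%). The 144 include the 3 measured rule genes. Of the 7 interferon lists 25 of 72 measured members were higher and 1 lower, with a median log2 ratio of 0.79 and summed UMIs 1.52 times higher (1.45 to 1.59). Rtp4 was 11.3-fold (6.44 to 20.2), Irf7 5.58-fold (2.64 to 11.4), Zbp1 4.12-fold (2.39 to 6.89), and Iigp1 6.07-fold higher (2.29 to 15.4). All 72 of these members were measured in both libraries, where 48 were higher in the PPARg-negative gate, 25 in the PPARg-low gate and 23 in both. Of the 48, 43 had a ratio over 1 in the PPARg-low library, whose gate held fewer UMIs (71874 against 234789). Gbp2, a guanylate-binding GTPase gene, was 1.96-fold higher in the PPARg-negative gate (1.39 to 2.70), with 30.4% of its UMIs in 1 cell, and had 1 against 54 UMIs in the PPARg-low sets (0.162-fold, 0.00404 to 0.945).

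**Figure D5:**
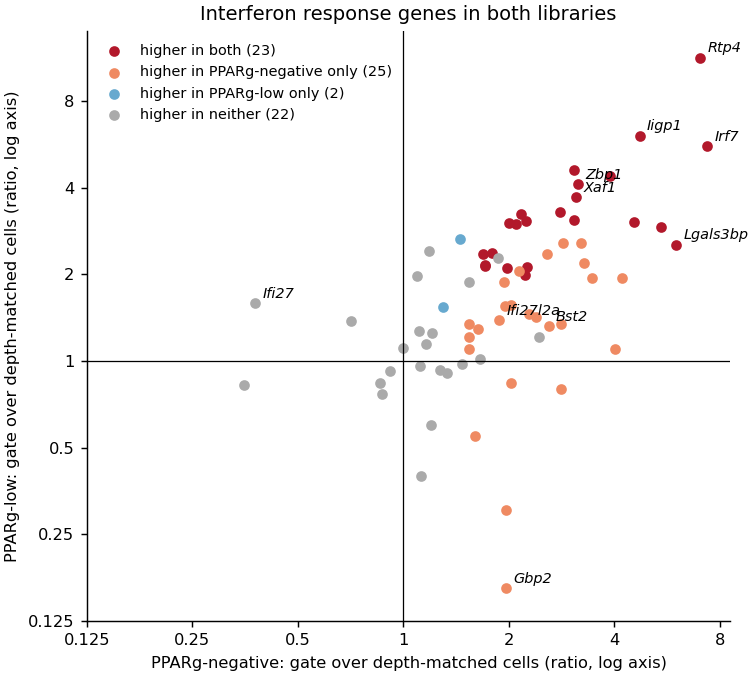
Ratios of CPM, gate over depth-matched cells, in the PPARg-negative (horizontal) and PPARg-low library (vertical), both on log axes, for the 72 interferon response members measured in both. Colours give the calls. Rtp4, Irf7 and Iigp1 lie at the upper right, and Gbp2 and Ifi27 lie on opposite sides of 1 in the libraries.

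Other gene groups differed in how they were called in the 2 libraries, and these differences were not tested. Cell cycle genes were higher in 7 of 14 measured members in the PPARg-low gate (median log2 ratio 1.10), where a single cell held 169 of the 241 UMIs of that list, against 0 of 10 in the PPARg-negative gate. Effector genes had 3 of 17 lower in the PPARg-low gate, with a median of -0.16 and 2 ratios over 1. Their summed UMIs were 384 and 4442, a ratio of 0.758 (0.682 to 0.842). The sum was thus lower in both gates, at 0.664-fold in the PPARg-negative one. Klrg1 had 50 and 506 UMIs in the PPARg-low sets (0.867-fold, 0.635 to 1.16). Ctla4 was lower in both gates, at 0.615-fold and 0.580-fold (0.358 to 0.892). Of the PPARg-low gate, 42.3% of cells were ribosome-poor, against 8.54% of the PPARg-negative gate, and 43.0% of its matched cells were as well.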

How the data were processed

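Splenic Tregs were counted per cell in 2 libraries, 1 per group. The authors deposited raw UMI counts per gene and barcode for 28692 genes, made with Cell Ranger 2.1.0 and mm10 per the submitters' processing notes; annotation and cell calling: not given in the sources used here. One group is PPARg-low by its label while its file names carry another tag, and the label's word is used. Per the labels' protocols, the chemistry was Chromium 3′ v2.

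Cells over 10% mitochondrial UMIs were left out. Gate cells were matched without reuse to at most 10 cells within 10% of their depth, deepest first; 79 of 82 received 10. CPM outside the 5 rule genes, computed here from the counts, was compared by ratio with exact conditional binomial 95% intervals, and shares by Clopper-Pearson intervals. A gene at 0 in 1 set entered at 3 counts for that set, and its ratio was set to 1 where this would have carried it past 1. No p-value was computed, cells were not used as replicates, and intervals ignore the spread between cells, mice and libraries. The ratio code was tested on simulated data.

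Members, 23 gene lists and comparisons were chosen with earlier results of these data known; 7 listed symbols were not used here. Named genes were the rule genes, up to 4 members per list (8 antiviral) by the interval bound nearest to 1, and 12 higher and 12 lower genes outside the lists, without genes over 50% in 1 gate cell; some of these are not reported here. Other list members named, and the 7 genes shown by rule gene UMIs, were chosen after their values were seen. Coordinates are from GENCODE M21 (mm10), promoters from RefSeq GRCm38.p6. Alternatives covered the gate, the matching, thinning, scaling and call limits; gates of 3 to 4 and of 3 to 9 rule gene UMIs, and the split of the graded level by ribosomal share, were added after seeing the data. Computation used scipy 1.17.1, numpy 2.4.6 and pandas 2.3.3 under Python 3.11.15, and figures matplotlib 3.10.9.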

Additional observations from a re-analysis of the deposited data

How the results depend on the processing

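The number of gate cells followed the rule. In the PPARg-negative library it was 172 with 2 or more rule gene UMIs, 35 with 5 or more, 16 after thinning to 750 UMIs, and 57, 51 and 62 with the rule lacking Ifit1, Isg15 and Usp18. In the PPARg-low library it was 65, 8 and 4 for the first 3, and 13 and 9 without Ifit1 and Isg15. A 5% mitochondrial limit and a 500-gene minimum gave 77 and 79 cells. Higher members of the 7 interferon lists, 64 as reported, numbered 34 after thinning, which keeps 59103 of 234789 gate UMIs, and 21 with 3 to 4 rule gene UMIs; in the other settings they numbered 47 to 65. Their median log2 ratio was 1.34 with 5 or more rule gene UMIs, 0.71 with 3 to 9 and 0.55 with 3 to 4. The effector median was -0.42 with 5 or more, -0.98 after thinning, -1.18 with 3 to 9 and -0.87 over members with 50 or more UMIs and with 3 to 4 rule gene UMIs. The resting median turned to -0.053 with 5 or more and -0.088 after thinning. Of the genes called by the naming rule, 5 values changed sign. After thinning, the log2 ratio was -0.25 for Ly6k, -0.28 for Socs1 and -0.41 for Dapl1, and with 5 or more rule gene UMIs it was 0.28 for S100a6 and -1.07 for Dapl1. The causes were not tested. Matched on ribosomal share too, 53 of 54 higher and 18 of 19 lower named calls were kept; after thinning 37 of 50 and 4 of 19 were, and without marker-bearing and deepest cells 47 of 50 and 7 of 19. Depth limits genes under about 20 UMIs. No paired analysis was possible because each group has 1 library.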
